A study of Bos taurus with 18 samples.

Results

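Oocyte transcripts, which the growing egg makes and stores, were followed in bovine in vitro produced blastocysts of day 7 after insemination, for the 8 genes OOEP, NLRP5, ZP2, ZP3, ZP4, GDF9, BMP15 and ZAR1. A probe set was taken for a gene where the array annotation listed that gene alone, which gave 8 probe sets for 7 of the 8 genes, among 24016 probe sets and 9155 genes in all. BMP15 had 2 probe sets, and ZAR1, for which no probe set was listed, was not analysed here. RNA of 18 pools was hybridised to bovine Affymetrix arrays, 1 array a pool, each pool holding 60 blastocysts of 1 sex sired by 1 bull. Sex-sorted semen of 3 bulls was used, so that females and males of bulls 1, 2 and 3 formed 6 groups of 3 arrays. All embryos were of mixed breed and snap frozen, and each bull is a single sire. Whether pools of the same group were made on different days is not given, so each p-value reflects the spread among pools, which may be technical.

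A mammalian oocyte stockpiles messenger RNA that carries the embryo through its first divisions, and most of this store is degraded as the embryo's own genome becomes active, well before a blastocyst forms. OOEP and NLRP5 belong to the subcortical maternal complex, a protein assembly under the oocyte membrane that the early embryo needs to divide. ZP2, ZP3 and ZP4 are glycoproteins of the zona pellucida, the coat that sperm bind and that still encloses the embryo until it hatches. GDF9 and BMP15 are secreted growth factors of the transforming growth factor beta family through which the oocyte acts on the granulosa and cumulus cells around it, and BMP15 lies on the X chromosome. ZAR1 is an RNA-binding protein of the oocyte.

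The arrays had medians from 5.33 to 5.49 on the log2 scale, and their number limits the precision. XIST, the RNA of the inactive X chromosome, lay between 8.87 and 9.57 in the females and between 5.93 and 7.28 in the males, so that the labelled sexes did not overlap. The blastocyst markers KRT18, POU5F1 and IFNT2 had mean log2 values of 14.04, 11.93 and 10.85 over the 18 arrays. The other listed trophectoderm and inner cell mass markers ran from 4.02 (PAG11) to 11.92 (KLF4). In 4 arrays (female bull 1 replicate 3, male bull 1 replicate 2, male bull 2 replicate 1 and male bull 3 replicate 3) the deviations from each probe set's median were wide, with an interquartile range of 0.267 to 0.349 against 0.168 to 0.198 in the other 14. Female bull 2 replicate 3, with a usual spread of 0.178, stood apart in several oocyte transcripts, and results that rest on it are given with and without it.

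OOEP gave the brightest of the 8 probe sets and was the member whose level differed between the sexes. Its mean log2 value was 7.97 over the 18 arrays, brighter than 78.2% of all probe sets. The means of ZP3, the brighter BMP15 probe set and NLRP5 lay at 5.93, 5.09 and 4.37 (percentiles 56.4, 46.5 and 37.2). ZP2, ZP4 and GDF9 lay at 3.74, 3.73 and 3.67 (percentiles 27.5, 27.3 and 26.3), and the dimmer BMP15 probe set at 2.85 (percentile 9.5). The percentiles describe how bright a probe set is. They do not rank RNA amounts between genes, since each probe set binds with its own strength, and the deposited values carry no call of presence or absence. A pool with fewer cells that hold a transcript cannot be told apart from one with less of it in each cell. Nor can RNA left from the oocyte be told apart from RNA made by the embryo.

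**Figure D1:**
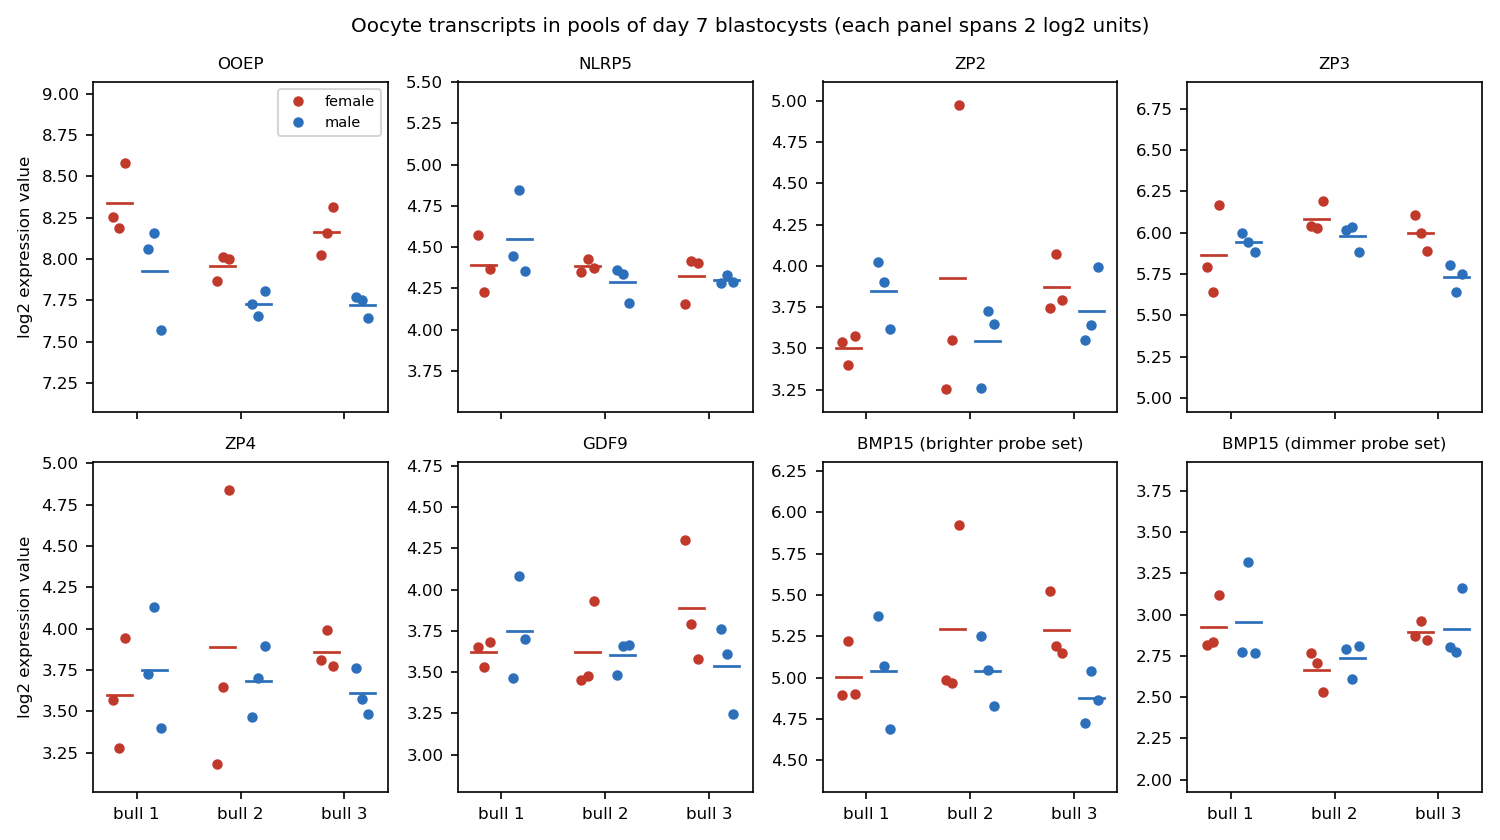
Log2 expression value of each oocyte probe set (vertical axis) in every pool, by bull (horizontal axis) and sex (red females, blue males). Points are arrays, short lines are means of 3 arrays, and every panel spans 2 log2 units. OOEP lies higher in females than in males of each bull, and 1 female pool of bull 2 stands above the rest for ZP2, ZP4 and the brighter BMP15 probe set.

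OOEP, a KH-domain subunit of the subcortical maternal complex, was higher in female than in male blastocysts. In bull 1 the female pools read 8.25, 8.19 and 8.58 and the male pools 8.06, 8.16 and 7.57. In bull 2 the female pools read 7.87, 8.01 and 8.0 and the male pools 7.73, 7.65 and 7.80. In bull 3 the female pools read 8.02, 8.16 and 8.31 and the male pools 7.77, 7.75 and 7.64. Within each bull every female pool lay above every male pool, by the narrowest margin in bull 1, whereas across bulls the ranges of the sexes overlapped. Of all probe sets, 3.34% had every female pool above every male pool of the same bull in all 3 bulls, and 2.51% had the reverse.

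Averaged over bulls, the female mean of OOEP was 8.15 ± 0.21 and the male mean 7.79 ± 0.19 (SD over 9 arrays). The difference was 0.36 log2 with a standard error of 0.0785 (95% confidence interval 0.20 to 0.53), or 1.28-fold, with a limma p of 0.00311 after Benjamini-Hochberg adjustment over all probe sets. OOEP was the only member called, 1 of 8 probe sets, while 15.6% of all probe sets were called for sex in either direction and 8.12% as higher in females and 7.47% as higher in males. A share of 1 in 8 is near that background. At the brightest probe set of each gene, the 7 measured genes had a median difference of 0.10 log2, and all 9155 genes one of -0.01 log2. The OOEP difference was 0.35 log2 without the 4 arrays of wide spread (adjusted p = 0.0059) and 0.35 log2 without female bull 2 replicate 3 (adjusted p = 0.00758). It no longer passed without the 6 arrays of bull 3, at 0.32 log2 and an adjusted p of 0.0701 in limma's test.

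Within single bulls, the OOEP difference (female minus male) was 0.41 log2 in bull 1, 0.23 in bull 2 and 0.44 in bull 3, with limma's adjusted p at 0.107, 0.498 and 0.0778. None of the 8 probe sets was called by limma within a bull, where 4.2%, 3.13% and 4.18% of all probe sets were called. An unadjusted p under 0.05 was found for 1, 0 and 2 of the 8 in bulls 1, 2 and 3. In the same order it was found for 3975, 3418 and 3809 of all 24016 probe sets. In bull 3 OOEP passed in fits with array weights (0.38 log2, adjusted p = 0.0199), with repeated quantile normalization (0.46 log2, adjusted p = 0.044) and with the brighter 50% of probe sets (0.44 log2, adjusted p = 0.0429). The limma fit takes its spread from all 6 groups. OOEP also passed in bull 3 without male bull 1 replicate 2 (adjusted p = 0.0487) or replicate 3 (adjusted p = 0.0252), at 0.44 log2. In bull 1 it passed only without male bull 1 replicate 2 (0.52 log2, adjusted p = 0.0481). The 5′ minus 3′ signal of 3 control transcripts, which tracks RNA quality, had sex differences of -0.22, 0.01 and 0.22 log2 (female minus male) from bull 1 to bull 3. Its part in the OOEP difference was not tested.

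The 6 groups ordered from female bull 1 (8.34 ± 0.21, SD, n = 3) through female bull 3 (8.17 ± 0.14), female bull 2 (7.96 ± 0.08), male bull 1 (7.93 ± 0.32) and male bull 2 (7.73 ± 0.07) to male bull 3 (7.72 ± 0.07). Neighbours in this order overlapped in range, apart from female bull 3 and female bull 2. Between bulls, OOEP was 0.29 log2 lower in bull 2 than in bull 1 and did not pass (adjusted p = 0.127), though it did without male bull 1 replicate 3 (-0.38 log2, adjusted p = 0.023).

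NLRP5, also known as MATER and the partner of OOEP in the complex, showed no sex difference that passed. Its female pools ran from 4.16 to 4.58 with a median of 4.38, and its male pools from 4.16 to 4.85 with a median of 4.34. The male and female ranges overlapped in every bull. The difference was -0.01 log2, with a 95% confidence interval of -0.16 to 0.14 (adjusted p = 0.941 in limma's test). In array signal, that interval does not reach the difference of 0.36 log2 measured for OOEP. Without calls of presence the NLRP5 signal is not shown to be above background. The intervals therefore do not compare RNA differences of the 2 genes. Male bull 1 replicate 2, an array of wide spread, held the highest value.

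**Figure D2:**
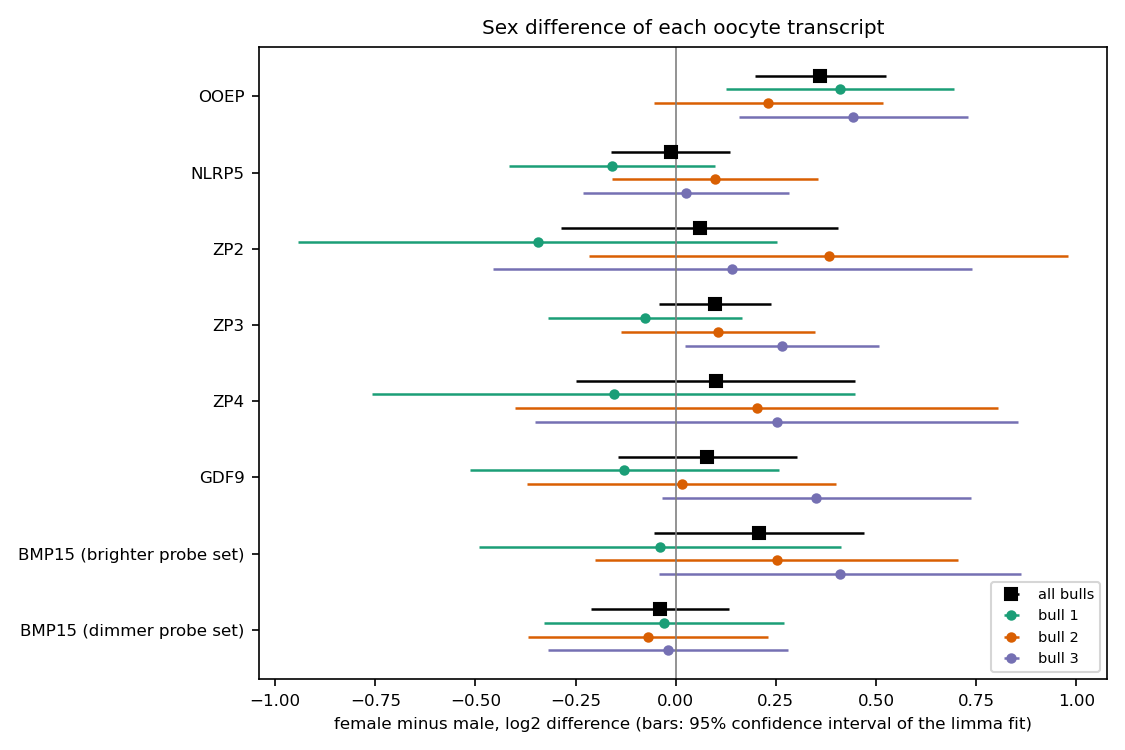
Difference between female and male pools on the log2 scale (horizontal axis, female minus male) for each oocyte probe set, with 95% confidence intervals of the limma fit. Black squares average the 3 bulls and coloured points are single bulls. The interval over all bulls excludes 0 for OOEP alone, and ZP2 and ZP4 have the widest intervals.

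The zona pellucida transcripts did not differ between the sexes in any test that passed. ZP3, the brightest of them here, ran from 5.64 to 6.19 in females (median 6.03) and from 5.64 to 6.04 in males (median 5.88). Its difference was 0.10 log2 (95% confidence interval -0.04 to 0.24, adjusted p = 0.389 in limma's test). In bull 3 its female pools, at 6.11, 6.0 and 5.89, all lay above its male pools, at 5.80, 5.64 and 5.75, and that difference of 0.27 log2 had an unadjusted p of 0.0338 and an adjusted p of 0.253. In the other bulls the ranges overlapped. The share of all probe sets with the sexes apart within a single bull was not counted. Such separations of members are therefore given without a background.

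ZP2, the zona protein that is cleaved after fertilisation to block further sperm, had an SD of 0.388 over the 18 arrays, larger than that of 96.3% of all probe sets, which fell to 0.242 without female bull 2 replicate 3. Over those 17 arrays OOEP (0.280), ZP4 (0.256) and GDF9 (0.244) had larger SDs than ZP2. Its female pools read 3.54, 3.40 and 3.57 in bull 1, 3.26, 3.55 and 4.97 in bull 2 and 3.74, 4.07 and 3.80 in bull 3. Its male pools read 4.03, 3.90 and 3.62, then 3.26, 3.73 and 3.65, then 3.55, 3.64 and 3.99 in the same order of bulls. A single pool, female bull 2 replicate 3, lay above all others. In bull 1 the males all lay above the females (-0.34 log2, adjusted p = 0.619 in limma's test). The sex difference over all bulls was 0.06 log2 (95% confidence interval -0.29 to 0.41, adjusted p = 0.864 in limma's test) and -0.11 without female bull 2 replicate 3 (adjusted p = 0.497).

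ZP4, a further sperm-binding glycoprotein of the coat, showed the same pool on top. Its female pools read 3.57, 3.28 and 3.94 in bull 1, 3.18, 3.65 and 4.84 in bull 2 and 3.81, 3.99 and 3.78 in bull 3. Its male pools read 3.72, 4.13 and 3.40, then 3.46, 3.70 and 3.89, then 3.76, 3.58 and 3.49. The sexes overlapped in bulls 1 and 2. They were apart in bull 3, with females higher (0.25 log2, adjusted p = 0.768 in limma's test). The sex difference over all bulls was 0.10 log2 (95% confidence interval -0.25 to 0.45, adjusted p = 0.763 in limma's test) and -0.06 without female bull 2 replicate 3 (adjusted p = 0.813).

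The growth factors of the oocyte did not differ between the sexes in tests that passed. GDF9, which drives cumulus expansion and follicle growth, ran from 3.45 to 4.30 in females (median 3.65) and from 3.25 to 4.08 in males (median 3.66). The ranges of the sexes overlapped in every bull. Its difference was 0.08 log2 (95% confidence interval -0.14 to 0.30, adjusted p = 0.699 in limma's test).

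BMP15, the X-linked partner of GDF9, was read by 2 probe sets. The brighter one read 4.89, 5.22 and 4.90 in the females of bull 1, 4.98, 4.97 and 5.92 in those of bull 2 and 5.53, 5.19 and 5.15 in those of bull 3. The males read 5.37, 5.07 and 4.69, then 5.25, 5.05 and 4.83, then 4.73, 5.04 and 4.87. The sexes overlapped in bulls 1 and 2, where female bull 2 replicate 3 was the highest array. They were apart in bull 3, with females higher (0.41 log2, adjusted p = 0.379 in limma's test). The sex difference over all bulls was 0.21 log2 (95% confidence interval -0.05 to 0.47, adjusted p = 0.315 in limma's test) and 0.10 without female bull 2 replicate 3 (adjusted p = 0.585). The dimmer probe set ran from 2.53 to 3.12 in females and from 2.61 to 3.32 in males, with a difference of -0.04 log2 (95% confidence interval -0.21 to 0.13, adjusted p = 0.814). Over the 18 arrays the probe sets had a Pearson r of -0.312, and of -0.0355 without female bull 2 replicate 3. That pool was the highest array of the brighter probe set and the lowest of the dimmer.

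No member was called between bulls, where 1.52% (bull 2 against bull 1), 3.53% (bull 3 against bull 1) and 3.74% (bull 3 against bull 2) of all probe sets were. Of the 8 probe sets, 2 had an unadjusted p under 0.05 in limma's test of bull 2 against bull 1, OOEP and the dimmer BMP15 probe set (-0.24 log2, adjusted p = 0.233), and none in the other pairs. Of all 24016 probe sets, 4277 had one for bull 2 against bull 1. The other pairs gave 4579 (bull 3 against bull 1) and 4431 (bull 3 against bull 2). A difference between bulls could not be told apart from a production or scan batch, which the labels do not give. The sex difference of no member was called as differing between bulls, as for all probe sets (0 of 24016 called by limma's interaction test, 656 at an unadjusted p under 0.05, none of them a member).

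Female bull 2 replicate 3 held the highest value of the 18 arrays for 4 of the 8 probe sets, against 2.54% of all probe sets. ZP2 stood 1.33 log2 above the median of the 17 other arrays there, ZP4 1.14 and the brighter BMP15 probe set 0.89. These are differences of array signal from medians of 3.64, 3.70 and 5.04, and without calls of presence the medians are not shown to be above background. ZP3 was highest there by only 0.02 log2 over the next array, while OOEP and NLRP5 differed from the median of the others by -0.01 and 0.02 log2. The pool was singled out after its values were seen.

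Only 12 of 24016 probe sets (0.05%) lay more than 0.5 log2 above every other array in this pool, and ZP2 and ZP4 were among them. The largest excess of all was that of KPNA7, an importin of the oocyte and early embryo and 1 of the 4 measured genes in a list of other oocyte and maternal-effect genes. KPNA7 read 6.54 in this pool and from 3.35 to 4.48 in the 17 others, 2.77 log2 above their median of 3.77, a level likewise without a call of presence. ID3, an inhibitor of DNA binding that responds to bone morphogenetic proteins, read 7.45 against 4.92 to 6.0. Its relatives ID1 and ID2 read 7.37 and 7.2 there, against medians of 7.38 and 7.32 in the 17 other arrays. Of 18 measured receptors and mediators of GDF9 and BMP15, only ID3 was highest there. That list had a median difference from the other arrays of -0.07 log2. The other measured oocyte genes were not the highest there: MOS, the kinase that holds the egg in meiosis, read 5.08 against 3.83 to 5.54, KIT 9.82 against 9.67 to 10.16, and FST, follistatin, 3.94 against 3.67 to 4.95.

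**Figure D3:**
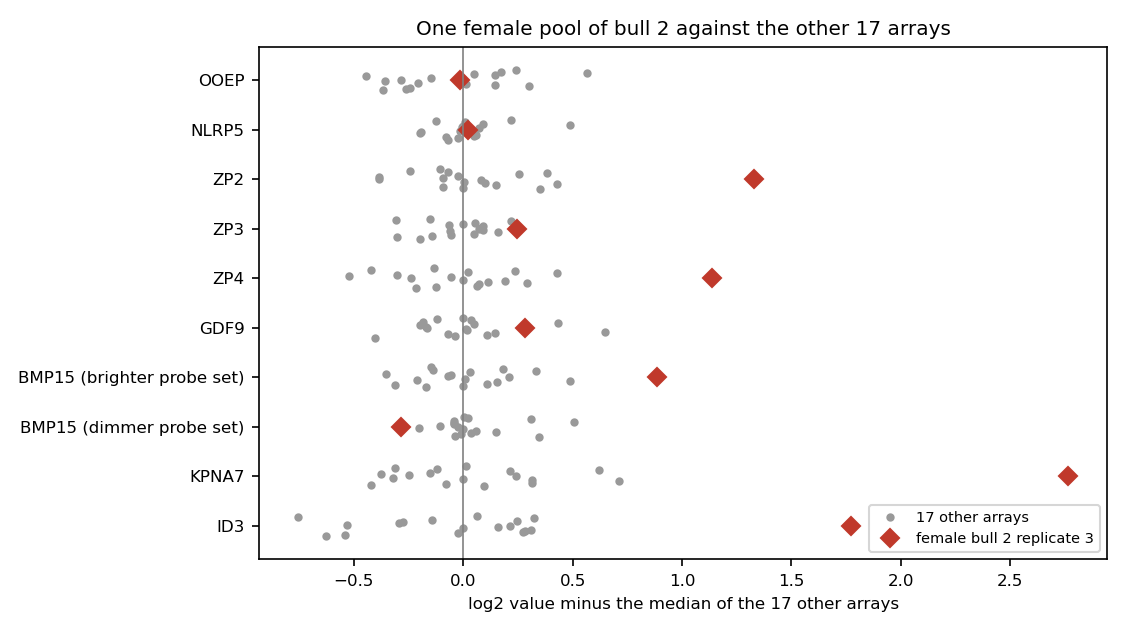
Log2 value of each array minus the median of the 17 arrays other than female bull 2 replicate 3 (horizontal axis), for the 8 oocyte probe sets and for KPNA7 and ID3. Grey points are the 17 other arrays and red diamonds that pool. The diamonds of ZP2, ZP4, the brighter BMP15 probe set, KPNA7 and ID3 lie beyond all grey points, and those of OOEP and NLRP5 lie among them.

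Cumulus and granulosa markers, which would come with cells adhering to an oocyte, had a mean log2 value of 6.19 over 23 measured genes in this pool, with 1 array higher, in a range of 5.78 to 6.21 in females and 5.63 to 6.11 in males. Of these genes, 14 lay above the median of the 17 other arrays in this pool and 9 below it, and 1 was the highest of the 18, STAR, a cholesterol carrier of steroid synthesis (6.61 against 5.81 to 6.47). POSTN, a matrix protein, read 6.56 there against a median of 4.28, VIM, vimentin, 5.74 against 4.45, and GJA1, a gap junction protein, 7.34 against 6.42. The highest other arrays read 6.58, 6.76 and 7.58 for these genes. The granulosa markers FSHR, LHCGR, AMH and FOXL2 read 3.14, 3.65, 3.82 and 3.73 there, against medians of 3.15, 3.74, 3.97 and 3.67. Without calls of presence these dim signals are not shown to be above background. The brighter CYP19A1, HSD3B1 and CYP11A1 read 7.69, 8.87 and 7.27 there, against medians of 7.49, 8.55 and 7.16. The genes named here were picked from the list after their values were seen. Trophectoderm markers averaged 8.36 there, with 7 arrays higher, and inner cell mass markers 9.50, with 4 higher. The pool's array median of 5.37 and its 5′ minus 3′ signal of -0.381 lay within the range of the other arrays. The part of these in the excess was not tested.

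Over the arrays, 28 pairs of member probe sets were correlated. ZP2 and ZP4 went together with a Pearson r of 0.838 (permutation test, two-sided p = 0.00025, adjusted p = 0.007 over the 28 pairs) and a Spearman rho of 0.68 (permutation p = 0.00274, adjusted p = 0.0384), n = 18 arrays. Without the 2 arrays farthest from the median of ZP2 r was 0.547, without female bull 2 replicate 3 it was 0.608, and within bulls 1, 2 and 3 it was 0.601, 0.973 and 0.191 (6 arrays each). The relation was thus largest in the bull with the high pool and weak in bull 3. ZP4 and GDF9 had an r of 0.577 (permutation p = 0.0174, adjusted p = 0.151) and a rho of 0.699 (permutation p = 0.00175, adjusted p = 0.0384), with 0.662, 0.951 and 0.625 within the bulls and 0.570 without the 2 farthest arrays. ZP2 and the brighter BMP15 probe set fell from 0.635 to 0.195 without female bull 2 replicate 3. No other pair passed after adjustment by either measure. OOEP and NLRP5 had an r of 0.337.

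The named genes whose levels followed OOEP most closely over the 18 arrays were CELF4, an RNA-binding protein, ZNF177, a zinc finger protein, and SLC25A4, a mitochondrial ADP/ATP carrier, with Pearson r of 0.938, 0.927 and 0.925. CELF4 and ZNF177 were themselves higher in females by 0.36 and 0.34 log2 (adjusted p = 0.00535 and 0.0016 in limma's test). For ZP3, the second brightest member, they were RAC3 (r = 0.763), ACBD5 (0.762) and CLIC2 (0.751). These values describe 18 arrays that share sex and bull groups.

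In the limma fit of the 6 group means, the transcripts that act around the members gave mixed directions. Of 18 measured genes of deadenylation and decay of maternal messenger RNA, 2 were higher in females and 4 in males (33.3%), where 20.8% of 9155 genes were called with the brightest probe set of each, and the list's median difference was 0.01 log2 against -0.01 over all genes. CNOT6, a deadenylase of the CCR4-NOT complex, was lower in females by 0.54 log2 (7.06 ± 0.12 against 7.60 ± 0.20, SD, n = 9, adjusted p = 7.22e-05 in limma's test). DCP1A, a decapping cofactor, was lower by 0.35 log2 (adjusted p = 0.000722), as were PAN2, a deadenylase subunit (-0.23, adjusted p = 0.0148), and CNOT6L, a relative of CNOT6 (-0.21, adjusted p = 0.0448). EDC4, a decapping scaffold, was higher in females (0.21, adjusted p = 0.00514), as was TUT7, a terminal uridylyltransferase (0.22, adjusted p = 0.0327). CNOT6L lost its call in 13 and TUT7 in 10 of the 18 fits without 1 array. Without the 4 arrays of wide spread 5 genes of the list were higher in females and 3 in males.

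Of 18 measured receptors, mediators, processing enzymes and inhibitors of GDF9 and BMP15, 2 were lower in females and none was higher, with a median of 0.02 log2. That share of 11.1% is below the 20.8% of all genes called. BMPR1A, a type I receptor of bone morphogenetic proteins, was lower by 0.33 log2 (8.09 ± 0.12 against 8.42 ± 0.16, adjusted p = 0.00164 in limma's test), and ACVR2B, a type II receptor, by 0.22 log2 (adjusted p = 0.0259). ACVR2B lost its call without female bull 2 replicate 3, among 4 of the 18 fits without 1 array, and without the 4 arrays of wide spread. TGFBR2, the type II receptor of transforming growth factor beta, did not pass, at 0.25 log2 (adjusted p = 0.0591 in limma's test). FURIN, a protease that matures such ligands, and BMPR2, the type II receptor of both ligands, did not pass either, at -0.19 log2 each (adjusted p = 0.0936 and 0.155). Without female bull 2 replicate 3 the list had 1 gene higher in females and 1 in males, and without the 4 arrays of wide spread 1 and 3.

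None of the 4 other measured oocyte genes was called for sex, with KPNA7 at 0.32 log2 (adjusted p = 0.552 in limma's test) and -0.02 without female bull 2 replicate 3 (adjusted p = 0.93), MOS at 0.14, KIT at 0.04 and FST at -0.18. None of them had an unadjusted p under 0.05 in limma's test, while 6373 of all 24016 probe sets did. Among 23 cumulus and granulosa markers, 4 passed as higher in females and 1 as higher in males, with a median of -0.03 log2. That share of 21.7% is near the 20.8% of all genes called. They were TIMP2, a protease inhibitor (0.70 log2), CYP19A1, the aromatase (0.56), HSD3B1, a steroid enzyme (0.44), DCN, decorin (0.34), and, higher in males, COL1A2, a collagen (-0.26). DCN lost its call in 13 of the 18 fits without 1 array, among them that without female bull 2 replicate 3. The part of these markers in the OOEP difference was not tested. Of 8 sperm markers, 2 were higher in females, PRM1 (1.73 log2) and TNP1 (0.88), and 2 in males, ODF2 (-0.25) and SPA17 (-0.28). The trophectoderm list, 10 genes measured, held 2 calls toward females and 4 toward males, and the inner cell mass list 2 of 5 toward females. In these short lists the shares called were 50% (sperm), 60% (trophectoderm) and 40% (inner cell mass), against 20.8% of all genes. TFAP2A, a trophectoderm marker called as higher in males, lost its call in 7 of the 18 fits without 1 array.

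**Figure D4:**
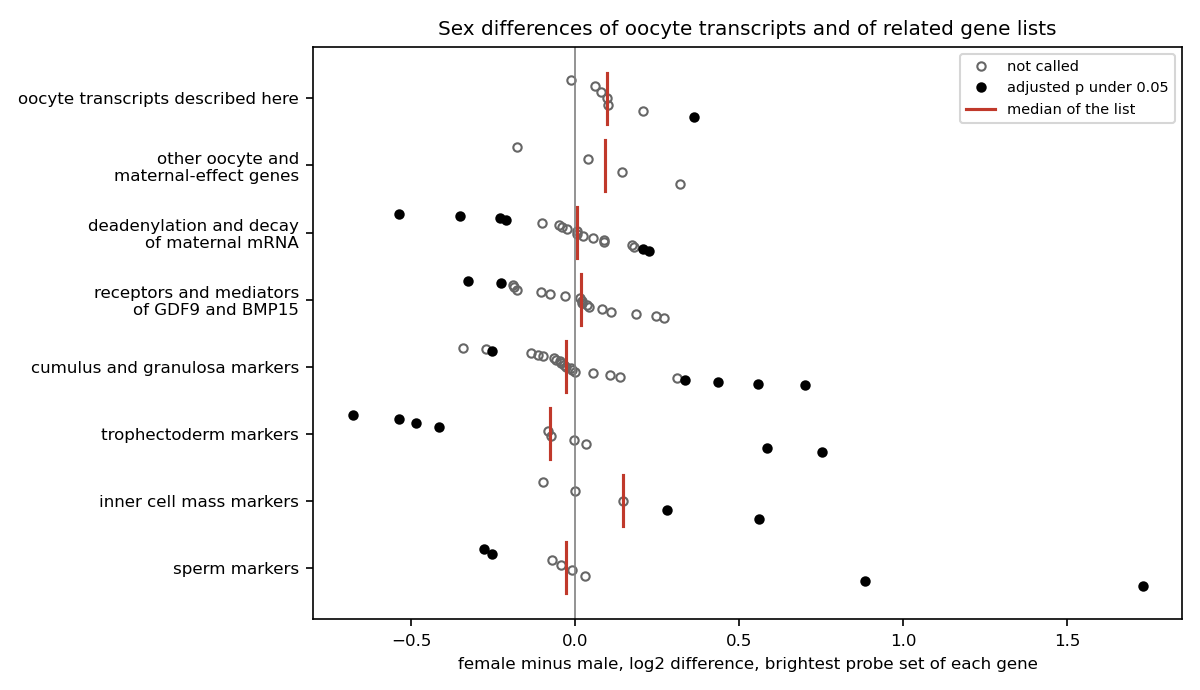
Sex difference on the log2 scale (horizontal axis, female minus male) of the oocyte transcripts and of related gene lists, 1 point a gene at its brightest probe set. Filled points passed an adjusted p of 0.05, open points did not, and red lines are medians of lists. OOEP is the filled point of the first row, and filled points lie on both sides of 0 in the rows of decay genes, cumulus and granulosa, trophectoderm and sperm markers.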

How the data were processed

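The authors deposited 1 log2 value for each probe set and array. RMA and Partek 6.4 are listed, with no role given, per the submitters' processing notes, and the scale follows from the range of 1.89 to 14.15. Where RMA's usual quantile step was run, arrays were given like distributions, and its summary compresses differences of dim transcripts. RNA was amplified from 50 ng, per the labels' protocols.

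Control probe sets (112 of 24128) were left out. Of 24016 tested, 13292 had 1 listed gene, 86 several and 10638 none, and symbols were updated by gene number with the assembly ARS-UCD2.0 (13263 matched, 29 kept as given). The 6 group means were estimated by limma 3.58.1 under R 4.3.3, using lmFit and eBayes on 12 residual degrees of freedom, with p-values adjusted by Benjamini-Hochberg over all probe sets and a threshold of 0.05. Lists were read at the brightest probe set of each gene. Correlations between members used 100000 permutations.

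All member probe sets were named. Of each list the genes called for sex when 6 or fewer and up to 4 of smallest p were named. The trophectoderm and inner cell mass lists were an exception, with their calls given as counts. Genes were named as alike by Pearson r with the 2 brightest members, 3 for each. Members and lists were chosen with earlier results of these data known. ID3, BMPR2 and the arrays singled out were chosen after values were seen. Trophectoderm and inner cell mass lists served as checks of tissue. The limma test of sex over all bulls was tried on simulated data with independent noise for each value. The other steps were not tried on simulated data. Figures were drawn with matplotlib. Sequences of the probes and transcripts were not used here.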

Additional observations from a re-analysis of the deposited data

Results flagged for a closer look

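Among 20 sets of 9 arrays of 1 sex, for the 8 member probe sets and KPNA7 and ID3, 5 held an end value whose gap to the next array exceeded, as a share of the whole range, Dixon's 95% critical value, where chance gives about 1 set in 20. Female bull 2 replicate 3 gave 4 of them, for ZP2 (4.97), ZP4 (4.84), KPNA7 (6.54) and ID3 (7.45), of which KPNA7 and ID3 were added because of this pool. NLRP5 in male bull 1 replicate 2 (4.85), an array of wide spread, was the other.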

How the results depend on the processing

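The OOEP difference over all bulls stayed between 0.30 and 0.43 log2 in 29 alternatives and passed in 28, among them all 18 fits without 1 array (0.30 to 0.40) and the sample number as a replicate block (0.36 log2, adjusted p = 0.00636). It did not pass without bull 3 (0.32 log2). The other members were not called for sex over all bulls in any of 198 fits, though their sign changed in 15. Among 1140 fits of members within a bull or between bulls, 7 were called, all for OOEP. The sample numbers did not pair female with male arrays (r of deviations from -0.181 to 0.103 in 9 pairs), and with the block 3527 probe sets were called for sex instead of 3743. Over all probe sets, the sex count fell to 2044 without bull 2 and 2182 without bull 3. Array weights gave 1740, 1799 and 3144 for sex in bulls 1, 2 and 3 instead of 1008, 752 and 1004, and 1161, 2045 and 2693 for bull 2 against 1, 3 against 1 and 3 against 2 instead of 364, 848 and 897. Without the 4 arrays of wide spread, an alternative added after seeing the data, these were 1130 (sex in bull 2), 1545 (sex in bull 3), 228 (bull 2 against 1) and 466 (bull 3 against 1), and the brighter 50% of probe sets gave 569 (bull 2 against 1). Fits without 1 array gave 625 to 1240, 422 to 956 and 465 to 1317 for sex in bulls 1, 2 and 3, and 133 to 607, 271 to 1594 and 384 to 1337 for the bull pairs in the same order. The cause of these changes was not tested. The brighter 50% of probe sets held only OOEP and ZP3 of the members. Dim probe sets and 3 arrays a group limit what could be seen.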

Other observations

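Of the 12 probe sets more than 0.5 log2 above all other arrays in female bull 2 replicate 3, 7 had a named gene. LOC513055, a provisional symbol, was not counted as named (8.91 against 5.58 to 7.36 in the 17 others). Besides KPNA7, ID3, ZP2 and ZP4 the named genes were RGS16, a regulator of G protein signals (6.27 against 4.16 to 4.81 in the 17 others), GFI1, a transcriptional repressor (4.93 against 2.89 to 4.10), and THOC2, a subunit of the messenger RNA export complex (5.02 against 3.88 to 4.46). They were named after their values were seen. Of the other 17 arrays, male bull 3 replicate 3 and male bull 1 replicate 2, both of wide spread, had 164 and 94 such probe sets and the rest 0 to 21, none of them a member.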
